A study of Caenorhabditis elegans with 18 samples.

Results

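Nematode genes that set developmental time, 9 of them in Caenorhabditis elegans, were followed through the first hours of feeding after hatching. They are lin-14, lin-28, hbl-1, lin-66, lin-41, lin-29, lin-42, blmp-1 and daf-12, chosen by name as the core of the heterochronic (timing) pathway, and all 9 were found among the 46904 genes of the count table. RNA of whole larvae in the first stage (L1) had been sequenced in 18 libraries, 3 in each of 6 groups. The wild type N2, raga-1(ok386) mutants and rsks-1(ok1255) mutants were each taken starved or fed, and the labels give N2 as the line of every library and name 1 allele per mutant. Adults were bleached, their eggs were left in M9 buffer without food for 24 h at 20 °C, and fed larvae then had OP50 bacteria for 4 h. The labels give the same 24 h for starved larvae and no later time. Fed larvae may thus be up to 4 h older, and effects of food and of age cannot be told apart. RAGA-1, a small GTPase related to RagA, signals amino acid supply to TORC1, and RSKS-1 is the S6 kinase, which acts downstream of TORC1.

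The heterochronic pathway is a chain of regulators, several of which hold larval cells at the fates of one stage until they are switched off. LIN-14 and LIN-28 keep early fates and are silenced by the microRNA lin-4, HBL-1 acts after them, and late in larval life the microRNA let-7 silences lin-41, which releases the adult regulator LIN-29. Another layer keeps time within a stage: lin-42, the worm relative of the Period clock gene, is known to cycle once per larval stage, and BLMP-1 is a transcription factor known to prepare cycling genes for expression. Larvae that hatch without food stop early in L1, and these clocks are known to start with feeding.

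Library totals ran from 9929323 to 18539402 counts, and 14073 genes, all 9 timing genes among them, had enough counts to be tested. The mutated genes matched the labels: raga-1 had 0 counts in all 6 raga-1 libraries against 530 to 695 in N2, and rsks-1 stood at 22.8 to 41.7 CPM in rsks-1 libraries against 160 to 196 in N2. CPM is a count relative to library size after TMM scaling, an adjustment for library composition. Scaling matters in these data: with library totals alone the median log2 change of all genes on feeding moved from -0.07 to -0.37 in N2, from -0.05 to -0.15 in raga-1 and from -0.025 to -0.22 in rsks-1. Changes that turned with this shift are named where they are given. The labels do not say that replicates came from separate cultures, so p-values may measure technical spread. Opposite-strand genes with counts overlapped lin-28 (F02E9.1, 112 to 215 counts) and lin-29 (hmg-12, 122 to 456 counts), and whether counting used strand is not given in the sources used here, so values of both carry that uncertainty. In RNA of whole larvae, fewer cells of a type and less RNA per cell cannot be told apart.

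On feeding in N2, lin-42, blmp-1, lin-41, daf-12 and hbl-1 rose, and lin-14, lin-28, lin-66 and lin-29 fell. All 9 were past an adjusted p of 0.05 (edgeR quasi-likelihood test, Benjamini-Hochberg), with 73.9% of all genes tested also called (36.5% higher and 37.4% lower), so the count alone does not set them apart. In raga-1 mutants 4 rose and 2 fell (62.4% of all genes called, 29.4% higher and 32.9% lower), and in rsks-1 mutants 4 rose and 3 fell (70.8% called, 35.7% higher and 35.2% lower). Their median log2 change was 0.25 in N2, 0.12 in raga-1 and 0.14 in rsks-1, beside -0.07, -0.05 and -0.025 over all genes. Fed and starved libraries did not overlap for any of the 9 genes in N2, for 7 in raga-1 and for 7 in rsks-1, which 75%, 65% and 72.9% of all genes also showed. Only hbl-1 had a called direction on feeding that turned under library totals alone, as given with its values.

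**Figure D1:**
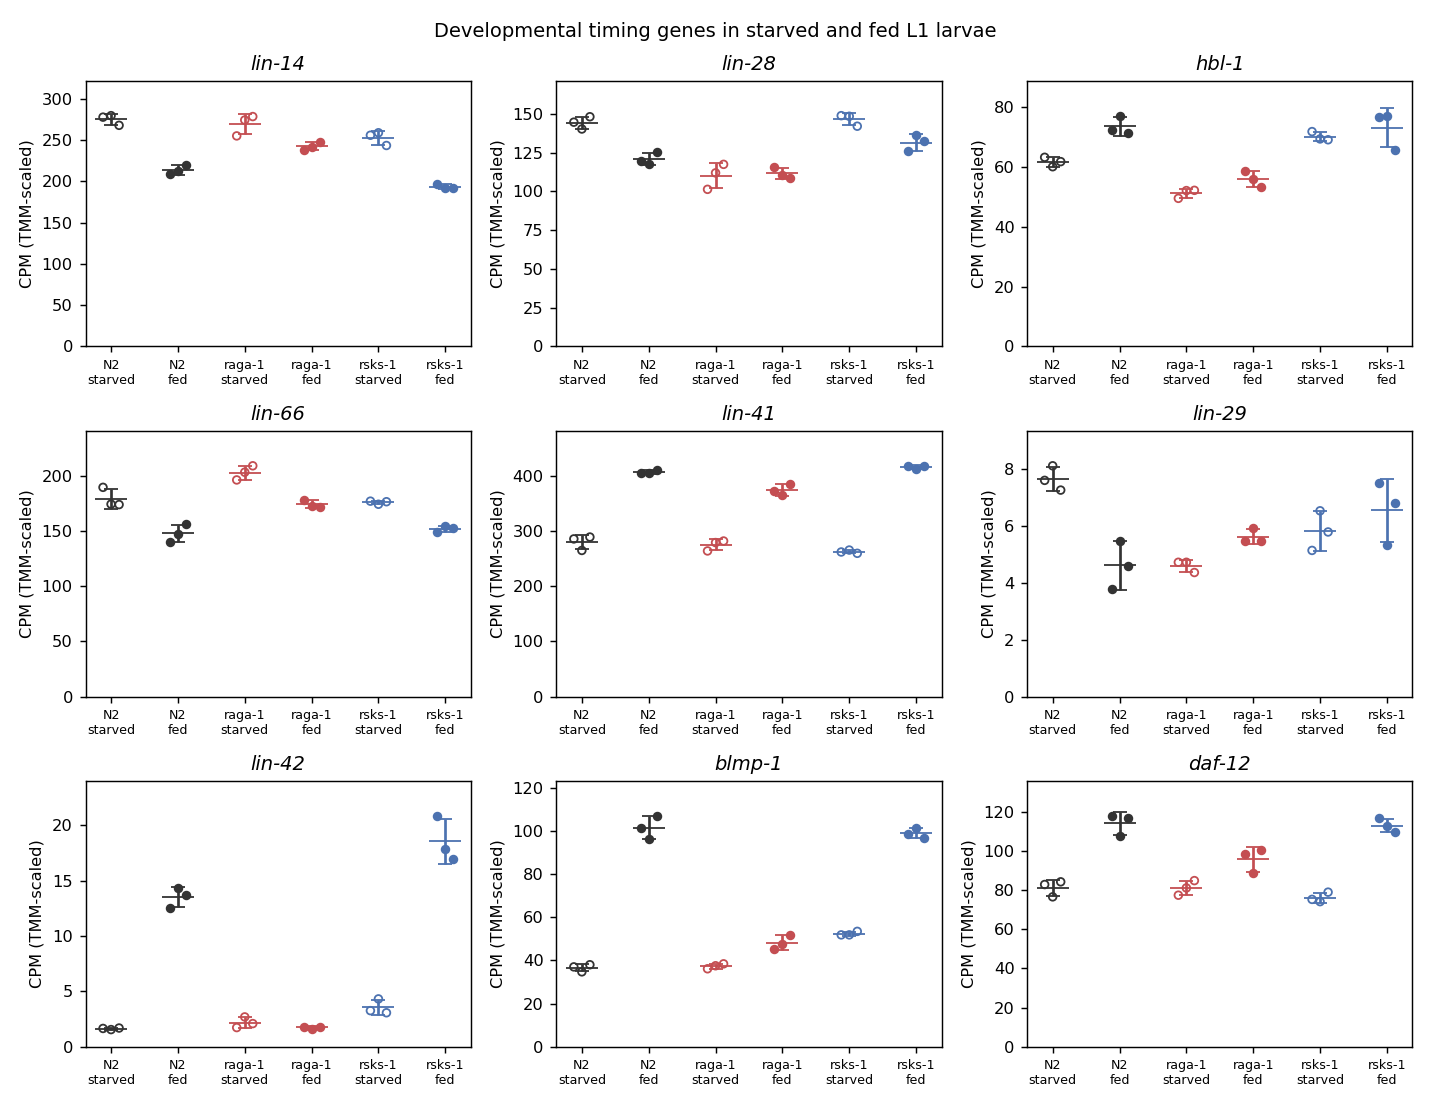
Levels of the 9 timing genes in CPM (vertical axes from 0) in each of the 6 groups, with a point per library (open starved, filled fed), a bar at the mean and whiskers of 1 SD (n = 3). lin-42 stood at 12.5 to 20.8 CPM in fed N2 and rsks-1 larvae and at 1.62 to 1.82 CPM in fed raga-1 larvae, while fed lin-14 was at 76.6 to 90.1% of its starved mean. hbl-1 in fed N2 lies above starved N2 here, and its change was -0.05 under library totals alone.

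The within-stage clock gene lin-42 (WBGene00018572, chromosome II, 1233236 to 1252359, minus strand, build WBcel235 as for all positions here) changed most of the 9. In starved N2 it was at 1.65, 1.55 and 1.69 CPM, and in fed N2 at 12.5, 14.3 and 13.7 CPM. That was a rise of 8.23-fold (log2 change 3.04, SE 0.20, adjusted p = 4.18e-29). In raga-1 mutants it was at 1.73, 2.69 and 2.09 CPM starved and at 1.82, 1.62 and 1.80 CPM fed, so the groups overlapped and no change was called (log2 change -0.31, SE 0.24, adjusted p = 0.262). In rsks-1 mutants it went from 3.26, 4.32 and 3.07 CPM to 20.8, 17.8 and 16.95 CPM, a rise of 5.14-fold (log2 change 2.36, SE 0.16). The 3 fed raga-1 libraries were the only fed ones at the level of starved N2. The level is low at the start, with 18 to 23 counts in each starved N2 library.

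The difference between genotypes was tested directly. In raga-1 the response of lin-42 fell short of that in N2 (difference of log2 changes -3.35, SE 0.32, adjusted p = 9.2e-18) and lower than in rsks-1 mutants (difference -2.67, SE 0.29). The rsks-1 response was at a difference of -0.68 from that of N2 (log2 scale, SE 0.28, adjusted p = 0.0568), which did not pass the threshold. It passed with relative log expression factors (adjusted p = 0.0498), with only the compared libraries (0.0445), and without rsks-1 fed replicate 1 (0.0392) or starved replicate 3 (0.0364), so this comparison sits on the edge of the threshold. Starved rsks-1 larvae already held more lin-42 than starved N2, 2.19-fold (log2 difference 1.13, SE 0.24, adjusted p = 4.4e-05). Over all genes the difference of responses was called for 50.5% between raga-1 and N2 (21.8% higher, 28.8% lower), 26.6% between rsks-1 and N2 (10.8% and 15.8%) and 44% between raga-1 and rsks-1 (18.8% and 25.3%). Of the timing genes 6 (3 higher, 3 lower), 3 (2 and 1) and 6 (2 and 4) were called. Scaled by library totals alone, the first was 4 higher and 2 lower and the second 5 higher and 1 lower.

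The transcription factor gene blmp-1 (WBGene00003847, chromosome I, 10409302 to 10414773, plus strand) showed a graded response across the genotypes. In N2 it went from 37.0, 34.7 and 38.01 CPM to 101, 96.4 and 107 CPM, a rise of 2.77-fold (log2 change 1.47, SE 0.06, adjusted p = 2.77e-48). In rsks-1 mutants it went from 51.9, 51.9 and 53.5 CPM to 98.7, 101.5 and 96.8 CPM (1.89-fold, log2 change 0.92, SE 0.06). In raga-1 mutants it went from 36.1, 37.5 and 38.4 CPM to 45.3, 47.7 and 52.0 CPM (1.29-fold, log2 change 0.37, SE 0.06). No fed library overlapped a starved one within a genotype, and fed raga-1 libraries overlapped starved rsks-1 libraries.

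All 3 pairwise differences of the blmp-1 response passed the threshold. The raga-1 response was smaller than that of N2 (difference in log2 change -1.10, SE 0.08, adjusted p = 7.86e-24) and than that of rsks-1 (difference -0.55, SE 0.08). The rsks-1 response was also smaller than that of N2 (difference -0.55, SE 0.08, adjusted p = 8.16e-09). In rsks-1 this went with the starved level, which was 1.43-fold above starved N2 (log2 difference 0.52, SE 0.06). The fed level did not differ past the threshold (log2 difference -0.04, SE 0.05, and 0.03 under library totals alone). In raga-1 it was the reverse: starved larvae were at a log2 difference of 0.03 (SE 0.06, not called), and fed larvae were 2.10-fold below fed N2 (log2 difference -1.07, SE 0.06, adjusted p = 5.87e-37). Both listed blmp-1 isoforms, F25D7.3a and F25D7.3b, rose in N2 (log2 changes 1.37 and 1.49, SE 0.12 and 0.10) and in rsks-1 (0.96 and 0.88). In raga-1 F25D7.3b rose (0.48, SE 0.10), and F25D7.3a was not called (0.23, SE 0.11, adjusted p = 0.162). Both responses were lower in raga-1 than in N2 (-1.14 and -1.01). The rsks-1 response was called lower than that of N2 for F25D7.3b (-0.61, SE 0.14, adjusted p = 0.0143) but not for F25D7.3a (-0.41, SE 0.16, adjusted p = 0.149).

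**Figure D2:**
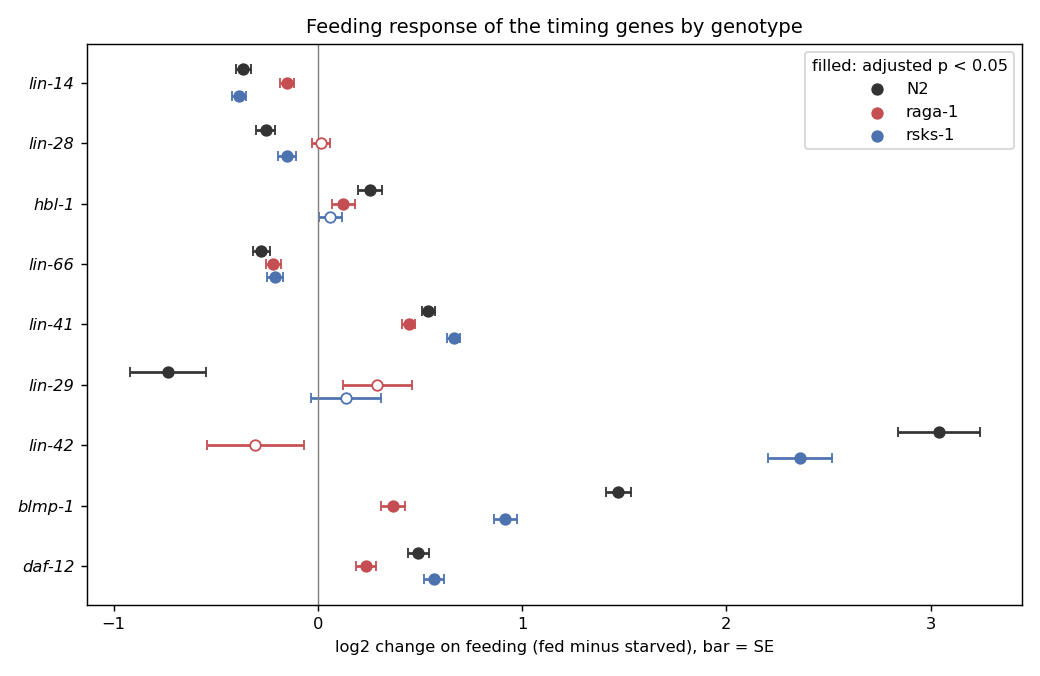
Log2 change on feeding (fed minus starved, horizontal axis) of each timing gene in N2, raga-1 and rsks-1, with whiskers of 1 SE from the edgeR fit and filled points at an adjusted p below 0.05. lin-42 and blmp-1 lie farthest right in N2 (3.04 and 1.47), and lin-42 in raga-1 lies at -0.31. With library totals alone hbl-1 lies at -0.05 in N2.

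Genes with a profile close to lin-42 or blmp-1 were looked for over the 6 group means on a centred log2 scale. A small constant was added to each CPM before the logarithm, which shrinks changes most at low levels such as those of lin-42. Among named genes of at least 10 CPM on average over the 18 libraries, let-653, which encodes a protein of the apical extracellular matrix, was closest to lin-42 (root mean square difference 0.13 log2 units), before rml-4 (0.15) and the cell cycle phosphatase gene cdc-25.2 (0.24). In N2 let-653 averaged 4.54 ± 0.85 CPM starved and 30.9 ± 0.29 fed, in rsks-1 mutants 7.14 ± 0.58 and 47.8 ± 1.88, and in raga-1 mutants 5.47 ± 0.33 and 4.62 ± 1.29 (SD, n = 3). Closest to blmp-1 were dsh-2 (0.04), a Dishevelled gene of Wnt signalling, and mes-4 and par-2 (0.05 each), known for germline chromatin and for cell polarity. These likenesses rest on 6 group means. The other 7 timing genes ranged over less than 1 log2 unit between groups, and no like genes were sought for them.

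lin-14 (WBGene00003003, chromosome X, 11465560 to 11485871, plus strand), which holds cells at L1 fates, was abundant and fell on feeding in all 3 genotypes. It was at 278, 279 and 268 CPM in starved N2 and at 208, 213 and 219 CPM in fed N2, so fed larvae kept 77.7% of the starved level (log2 change -0.36, SE 0.04, adjusted p = 2.94e-17). In rsks-1 mutants 76.6% was kept (log2 change -0.39, SE 0.04). In raga-1 mutants it was at 255, 274 and 278 CPM starved and at 238, 242 and 247 CPM fed, which kept 90.1% (log2 change -0.15, SE 0.03, adjusted p = 5.41e-05). Fed libraries lay below starved ones in each genotype. The change in raga-1 was smaller than in N2 (difference 0.21, SE 0.05, adjusted p = 0.000124) and than in rsks-1 (difference 0.23, SE 0.05).

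The isoform table divides lin-14 between T25C12.1a, which starts at 11465560 and has 12 exons, and T25C12.1b, which starts within the gene at 11480361 and has 10. The b isoform was at 137, 151 and 151 CPM in starved N2 and at 72.01, 89.04 and 87.4 CPM in fed N2 (log2 change -0.82, SE 0.08, adjusted p = 1.01e-06), and it fell as well in rsks-1 (log2 change -0.81, SE 0.08). In raga-1 it was at 132, 139 and 142 CPM starved and at 117, 133 and 140 CPM fed, with overlapping groups (log2 change -0.08, SE 0.08, adjusted p = 0.543). The difference between raga-1 and N2 was called (0.74, SE 0.12, adjusted p = 0.000236) and ran from 0.65 to 0.81 with each library left out. The a isoform was not called in N2 (log2 change -0.03, SE 0.08) or rsks-1 (-0.02, SE 0.08). In raga-1 it was lower at the edge of the threshold (-0.22, SE 0.08, adjusted p = 0.0462). That call was lost in 14 of 18 fits that each left out 1 library. Under library totals alone the a isoform was also lower in N2 (-0.30). The b share of the lin-14 counts was 48.9 to 56.1% in starved and 34.8 to 42.5% in fed N2, and 50.6 to 51.8% and 48.9 to 56.4% in raga-1. Reads in shared exons are divided between isoforms by RSEM's estimate, and these values are no direct count of either transcript.

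lin-28 (WBGene00003014, chromosome I, 8407630 to 8410804, minus strand), whose RNA-binding product blocks let-7 maturation, also fell in N2 and rsks-1. It went from 145, 140 and 148 CPM to 120, 118 and 125 CPM in N2 (83.8% kept, log2 change -0.26, SE 0.05, adjusted p = 2.17e-07) and kept 89.8% in rsks-1 (log2 change -0.15, SE 0.04). For raga-1 the values were 101, 112 and 117 CPM starved and at 116, 110 and 109 CPM fed. These groups overlapped, and no change was called (log2 change 0.02, SE 0.04, adjusted p = 0.777), with a value of -0.09 under library totals alone. Starved raga-1 larvae began lower than starved N2 (log2 difference -0.39, SE 0.04, adjusted p = 2.91e-14). The response differed between raga-1 and N2 (0.27, SE 0.06, adjusted p = 0.000101) and between raga-1 and rsks-1 (0.17, SE 0.06, adjusted p = 0.0178). The second of these was lost without raga-1 fed replicate 1, raga-1 starved replicate 1 or rsks-1 fed replicate 1 (0.14, 0.11 and 0.14).

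The shorter lin-28 coding isoform F02E9.2b (196 codons, against 227 in F02E9.2a) was at 33.5, 31.9 and 32.2 CPM in starved and 21.9, 19.5 and 12.9 CPM in fed N2 (log2 change -0.85, SE 0.14, adjusted p = 0.000148). In rsks-1 it went from 40.6, 35.9 and 36.4 CPM to 17.8, 19.3 and 20.0 CPM (log2 change -0.98, SE 0.14). In raga-1 the change was -0.25 (SE 0.14, adjusted p = 0.224). Its difference from N2 (0.60, SE 0.20, adjusted p = 0.0387) lost the call in 10 of 18 fits that each left out 1 library. As with lin-14, these are estimated shares of one gene's reads. Of 30 listed isoforms of the timing genes, 22 could be tested, and on feeding in N2 6 were higher and 6 lower, where 47.1% of all isoforms were called (22.8% higher, 24.3% lower). For raga-1 2 were higher and 1 lower (29.8% of all, 15.2% higher and 14.5% lower), and in rsks-1 7 were higher and 3 lower (41.2% of all, 20.9% higher and 20.3% lower). The response was called higher than in N2 for 5 isoforms and lower for 3 in raga-1 (24.4% of all, 10.8% higher and 13.5% lower), and for 3 and 1 in rsks-1 (9.33% of all, 4.22% higher and 5.11% lower).

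**Figure D3:**
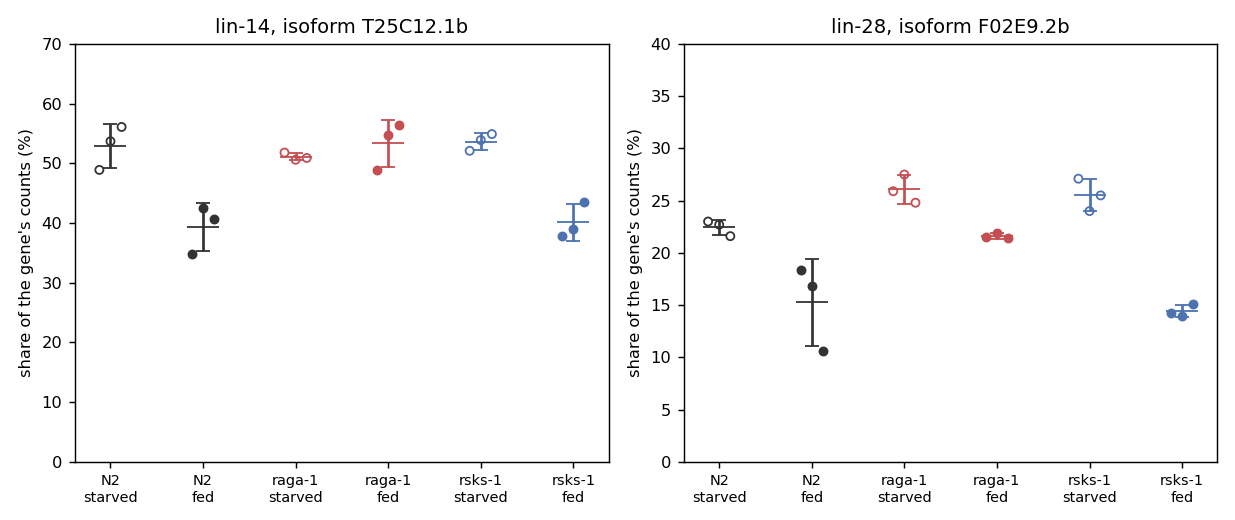
Share of each gene's counts (percent, vertical axes from 0) assigned to lin-14 isoform T25C12.1b and lin-28 isoform F02E9.2b, with a point per library, a bar at the mean and whiskers of 1 SD (n = 3). The lin-14 b share was 48.9 to 56.1% in starved and 34.8 to 42.5% in fed N2 libraries, and at or above 48.9% in all raga-1 libraries. Reads are divided between isoforms by RSEM's estimate.

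hbl-1 (WBGene00001824, chromosome X, 5822142 to 5827755, plus strand), a Hunchback-like factor that acts after LIN-14 and LIN-28, moved little. In N2 it was at 63.2, 60.1 and 61.8 CPM starved and at 72.3, 77.2 and 71.3 CPM fed (log2 change 0.25, SE 0.06, adjusted p = 5.47e-05). Under library totals alone this change was -0.05, and relative to the median of all genes it was 0.32 under both scalings. Its raga-1 levels were 49.5, 52.1 and 52.2 CPM starved and at 58.7, 55.9 and 53.3 CPM fed (log2 change 0.12, SE 0.06, adjusted p = 0.0461), a call lost under library totals alone (0.02), in DESeq2 (adjusted p = 0.0762), and without raga-1 fed replicate 1 or 2 or starved replicate 1. In rsks-1 the change was not called (0.06, SE 0.06). That value was 0.14 and called without rsks-1 fed replicate 3 (adjusted p = 0.034), and -0.14 and called with library totals alone (adjusted p = 0.0217). Starved and fed raga-1 larvae held less hbl-1 than N2 (log2 differences -0.26 and -0.39, SE 0.06 each), the fed one not called with library totals alone (-0.07).

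lin-66 (WBGene00001562, chromosome IV, 13888079 to 13893986, plus strand), a repressor of lin-28, fell in all 3 genotypes. It went from 189, 174 and 174 CPM to 140, 147 and 156 CPM in N2 (log2 change -0.28, SE 0.04, adjusted p = 8.51e-10), with log2 changes of -0.22 (SE 0.04) in raga-1 and -0.21 (SE 0.04) in rsks-1. Fed libraries lay below starved ones in every genotype. No difference of response was called (raga-1 minus N2 0.06, SE 0.06, adjusted p = 0.408), although with library totals alone that difference was 0.26 and called, and with only the compared libraries 0.15 and called. In raga-1 the level was higher than in N2 both starved (log2 difference 0.18, SE 0.04) and fed (0.24, SE 0.04).

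lin-41 (WBGene00003026, chromosome I, 9334800 to 9342496, minus strand), the RNA-binding regulator silenced by let-7 late in larval life, rose in all 3 genotypes. It went from 286, 265 and 289 CPM to 406, 405 and 411 CPM in N2 (1.45-fold, log2 change 0.54, SE 0.03, adjusted p = 1.34e-31). In raga-1 it rose 1.36-fold (0.45, SE 0.03) and in rsks-1 1.59-fold (0.67, SE 0.03), with all fed libraries above all starved ones. The raga-1 response was not called different from N2 (-0.10, SE 0.05, adjusted p = 0.0768), with 0.11 under library totals alone, but it was called without starved N2 replicate 3, raga-1 fed replicate 3 or raga-1 starved replicate 1. The rsks-1 response was called larger than that of N2 (0.12, SE 0.05, adjusted p = 0.0359), a call lost with DESeq2, without the low-count filter, with relative log expression factors, and in 8 of the fits without 1 library. The raga-1 response was smaller than that of rsks-1 (-0.22, SE 0.05, adjusted p = 2.25e-05).

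lin-29 (WBGene00003015, chromosome II, 11917642 to 11935343, minus strand), the zinc-finger factor of the adult switch, was scarce, with 36 to 106 counts in a library. It was at 7.61, 8.12 and 7.26 CPM in starved N2 and at 3.78, 5.49 and 4.59 CPM in fed N2 (60.3% kept, log2 change -0.73, SE 0.19, adjusted p = 0.000257). Values of raga-1 larvae were 4.73, 4.73 and 4.37 CPM starved and 5.47, 5.93 and 5.47 CPM fed, which was not called (0.29, SE 0.17, adjusted p = 0.127) although the groups did not overlap. In rsks-1 it was not called either (0.14, SE 0.17, and -0.06 under library totals alone). Both mutants differed from N2 in response (raga-1 1.03, SE 0.25, adjusted p = 0.000284, and rsks-1 0.87, SE 0.25, adjusted p = 0.00462). Starved raga-1 larvae held less than starved N2 (log2 difference -0.74, SE 0.17). Isoform W03C9.4b had 64 counts over the starved N2 libraries and 0 over the fed ones, at least 15.2-fold lower when the fed group is set to 3 counts, whereas W03C9.4c.2 had 0 starved and 35 fed, at least 16.3-fold higher in fed larvae with the same floor of 3 counts over the starved group. Both bounds cover counting error only and rest on RSEM's split of few reads. W03C9.4c.2 has no position in the annotation used. Its share in fed N2 was 28.6, 47.6 and 4.67% by library, where that of W03C9.4c.1 was 0, 0 and 42.7%.

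Adult cuticle genes linked to LIN-29, collagen and blister genes of the adult cuticle, were near the bottom of the range. Of 10 listed, 9 were in the table and 4 could be tested, and their summed level was 3.06 to 6.30 CPM over all libraries of all groups. In N2 the collagen genes col-62 (1.63 ± 0.10 to 0.33 ± 0.29 CPM) and col-119 (1.27 ± 0.27 to 0.57 ± 0.14 CPM) were called lower, and bli-1 (1.33 ± 0.29 to 2.49 ± 1.40 CPM) higher, beside 73.9% of all genes called. The bli-1 call was lost under library totals alone (0.64, adjusted p = 0.089), which left none higher and 2 lower. In raga-1 none was higher and 2 were lower, beside 62.4% called. The adult collagen gene col-19 stood at 0.10 ± 0.09 CPM (starved N2), 0.21 ± 0.36 (fed N2), 1.12 ± 0.22 (starved raga-1) and 0.29 ± 0.05 (fed raga-1), and its response differed from that of N2 (-2.91, SE 1.24, adjusted p = 0.0424), a call lost under library totals alone (-2.73, adjusted p = 0.0569). Yolk protein genes, which adults express, summed to 0.94 to 7.20 CPM.

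daf-12 (WBGene00000908, chromosome X, 10635908 to 10666875, plus strand) encodes the nuclear receptor that reads the steroid hormone signal for continued growth or dauer arrest. It went from 82.9, 76.6 and 84.3 CPM to 118, 108 and 117 CPM in N2 (1.40-fold, log2 change 0.49, SE 0.05, adjusted p = 4.05e-16). In rsks-1 it rose 1.48-fold (0.57, SE 0.05), and in raga-1 it went from 77.5, 81.2 and 84.9 CPM to 98.7, 88.6 and 100.4 CPM, a rise of 1.18-fold (0.24, SE 0.05). Starved levels were not called different between either mutant and N2, and fed raga-1 stood below fed N2 and fed rsks-1. The fed difference of raga-1 from N2 (log2 difference -0.25, SE 0.05) turned to 0.07 and was not called with library totals alone. The raga-1 response was smaller than that of N2 (-0.25, SE 0.07, adjusted p = 0.00126) and of rsks-1 (-0.33, SE 0.07). The first of these was -0.05 and not called with library totals alone, and -0.23 and -0.22 relative to the median of all genes under the usual scaling and that one. With only the compared libraries it was -0.16 and not called (adjusted p = 0.0581). Isoform F11A1.3a went from 15.6 ± 9.27 to 46.0 ± 3.28 CPM in N2 (log2 change 1.56, SE 0.40, adjusted p = 0.00523) and was not called in raga-1 or rsks-1. Its starved N2 libraries were at 21.4, 20.6 and 4.95 CPM. The direct difference of its response from N2 was not called for raga-1 (-1.26, SE 0.56, adjusted p = 0.128) or rsks-1 (-0.81, SE 0.56, adjusted p = 0.48). F11A1.3c, with the largest mean share, was not called in N2 (51.9 ± 1.73 to 55.1 ± 6.49 CPM, log2 change 0.085, SE 0.16), raga-1 or rsks-1. In rsks-1 F11A1.3b was called higher (0 starved, 9.57 ± 6.71 CPM fed, adjusted p = 0.0465). The difference of this response from N2 was not called (adjusted p = 0.2). These values rest on RSEM's division of reads.

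More genes of the hormone pathway around DAF-12 fell than rose. Of 17 listed and tested, 2 were higher and 10 lower on feeding in N2 (median log2 change -0.65, beside -0.07 for all genes), 3 and 8 for raga-1 mutants, with 2 and 12 for rsks-1 mutants. Among all genes 36.5% were higher and 37.4% lower in N2, and 62.4% and 70.8% were called in raga-1 and rsks-1. daf-36, which encodes an oxygenase at the first step of hormone synthesis, rose from 3.85 ± 0.60 to 40.2 ± 2.69 CPM in N2 (log2 change 3.39, SE 0.13) and less in raga-1 (1.41, SE 0.10, difference -1.99, SE 0.17). The sterol transport genes ncr-1 and ncr-2 fell in N2 (-1.24, SE 0.07, and -3.65, SE 0.44), both less in raga-1 (differences 0.50, SE 0.09, and 2.34, SE 0.60). The dehydrogenase gene dhs-16 was called higher in N2 at under 1 CPM (0.26 ± 0.16 to 0.82 ± 0.12 CPM), a call lost under library totals alone (adjusted p = 0.0541). That scaling gave 1 higher and 15 lower in N2, 2 and 9 for raga-1 mutants, with 1 and 13 for rsks-1.

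The timing microRNA genes lin-4, let-7, mir-48, mir-84 and mir-241 were listed at 0 counts in all 18 libraries. At the lowest library total a floor of 3 counts is 0.302 CPM, which covers counting error only. How the libraries were prepared is not given in the sources used here, and mature microRNAs are short RNAs that libraries of long RNA usually miss. Nothing can be said from these files about the microRNAs that act on lin-14, lin-28 and lin-41.

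Genes that make and use microRNAs were measured. Of 13, 8 were higher and 4 lower on feeding in N2, 6 and 3 for raga-1 mutants, with 9 and 3 for rsks-1 mutants, and the response was called lower in raga-1 than in N2 for 7 and higher for 2. The shares of all genes called were 73.9%, 62.4% and 70.8% for feeding and 50.5% for the response. Scaled by library totals alone, the response was lower for 4 and higher for 5, and the feeding counts were 7 and 5 in N2, 6 and 5 for raga-1 mutants, with 7 and 4 for rsks-1. pash-1, a partner of the Drosha nuclease, went from 2.38 ± 0.77 to 16.4 ± 0.89 CPM in N2 (log2 change 2.76, SE 0.18), whereas raga-1 larvae had 3.59 ± 0.38 starved and 6.39 ± 0.21 fed (0.83, SE 0.17, difference -1.93, SE 0.26). drsh-1, the Drosha gene itself, rose in N2 (0.96, SE 0.12) and raga-1 (0.76, SE 0.12). The exonuclease gene xrn-2, known to degrade mature microRNAs, rose in N2 (41.1 ± 2.19 CPM starved, 218 ± 2.16 fed) and less so with raga-1 mutated (46.6 ± 1.58 and 103.0 ± 0.41, difference -1.27, SE 0.07). rde-4, which binds double-stranded RNA with Dicer, rose in N2 and raga-1 (1.16, SE 0.07, and 0.84, SE 0.07).

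Of 17 other heterochronic genes tested out of 19 listed, 10 were higher and 4 lower on feeding in N2, 8 and 4 for raga-1 mutants, with 11 and 2 for rsks-1 mutants. Their response was called lower in raga-1 than in N2 for 10 and higher for 1. Beside these counts, feeding called 73.9%, 62.4% and 70.8% of all genes and the response 50.5%. Library totals alone gave 9 higher and 5 lower in N2, 8 and 6 in raga-1, 9 and 4 in rsks-1, and 3 higher and 8 lower for the response. nhr-23, a nuclear receptor of the moulting cycle, went from 9.38 ± 0.23 to 36.3 ± 2.18 CPM in N2 (log2 change 1.95, SE 0.11) and from 12.12 ± 1.93 to 41.3 ± 1.91 CPM in rsks-1 (1.78, SE 0.10). Its raga-1 means were 4.56 ± 0.22 CPM before and 5.54 ± 0.58 CPM after feeding (0.29, SE 0.15, adjusted p = 0.0793). myrf-1, a transcription factor needed for lin-4 expression, rose in N2, rsks-1 and raga-1 (1.77, 1.72 and 0.61, SE 0.05, 0.04 and 0.04), and by less in raga-1 than in N2 (difference -1.16, SE 0.06). pan-1, a membrane protein gene, and let-418, a chromatin remodeller gene, rose in N2 (1.13, SE 0.04, and 1.24, SE 0.04) and by less in raga-1 (differences -0.88, SE 0.06, and -0.72, SE 0.05).

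The 11 larval cycle transcription factors, which include nhr-23 and myrf-1, did not move one way. On feeding in N2 6 were higher and 4 lower, against 4 and 5 for raga-1 mutants, and 7 and 3 for rsks-1 mutants, where 73.9%, 62.4% and 70.8% of all genes were called. By library totals alone it was 5 and 5 in N2, 4 and 5 for raga-1 mutants, with 6 and 3 for rsks-1. bed-3, a factor known from moulting, went from 2.23 ± 0.25 to 17.4 ± 1.90 CPM in N2 (log2 change 2.97, SE 0.18) and from 2.10 ± 0.43 to 18.8 ± 0.97 CPM in rsks-1. Means in raga-1 were 3.70 ± 0.30 and 4.60 ± 0.34 CPM (0.31, SE 0.17, adjusted p = 0.11), and its response was lower than in N2 (difference -2.66, SE 0.25, adjusted p = 1.08e-17). nhr-43, a nuclear receptor gene, fell in all 3 genotypes (log2 changes -2.17, -2.19 and -2.07, SE 0.15, 0.10 and 0.13), and the difference of raga-1 from N2 was -0.025 (SE 0.21, adjusted p = 0.933), or 0.18 and not called with library totals alone.

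**Figure D4:**
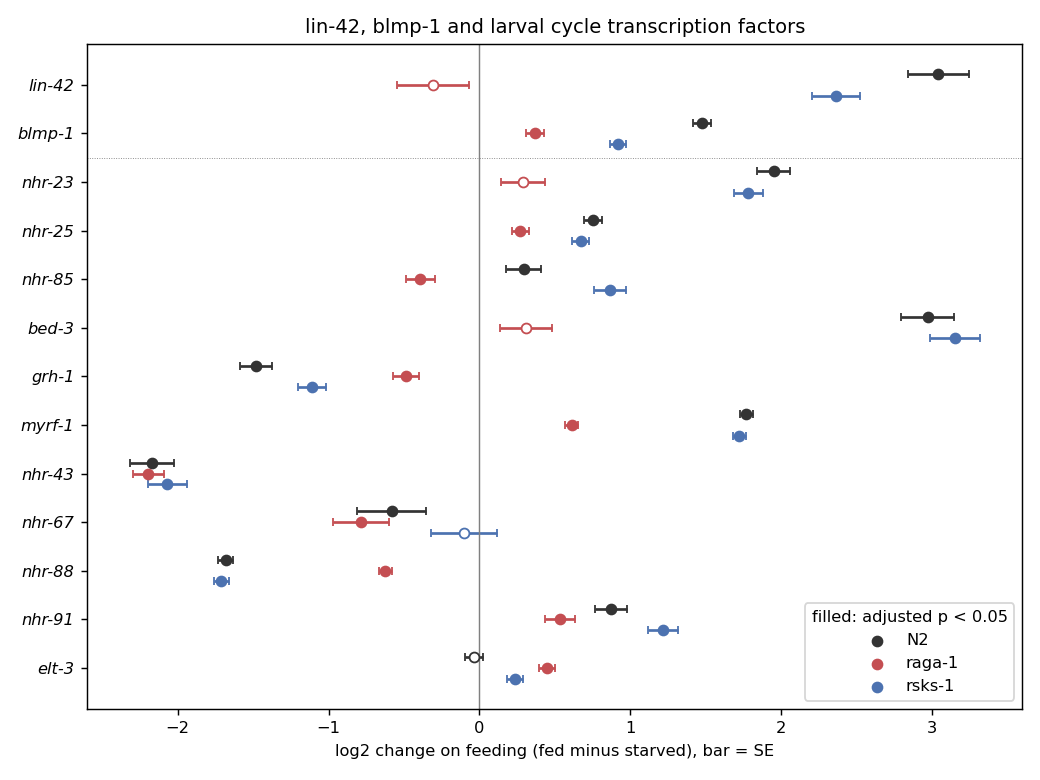
Log2 change on feeding (horizontal axis, whiskers 1 SE) of lin-42, blmp-1 and the 11 larval cycle transcription factors in N2, raga-1 and rsks-1, with filled points at an adjusted p below 0.05. bed-3 and nhr-23 lie at 2.97 and 1.95 in N2 and at 0.31 and 0.29 in raga-1, while nhr-43 lies at -2.17 in N2, -2.19 in raga-1 and -2.07 in rsks-1.

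Genes of L1 quiescence and entry into the cell cycle came next. Of 14, 8 were higher and 2 lower in each of the 3 genotypes, beside 73.9% of all genes called in N2, 62.4% in raga-1 and 70.8% in rsks-1. Library totals alone gave 8 and 6 in N2, 4 and 3 for raga-1 mutants, with 6 and 3 for rsks-1. The raga-1 response was called lower than that of N2 for 7 and higher for 1 (5 and 1 by library totals alone), beside 50.5% of all genes called. cdc-25.2 went from 9.24 ± 0.91 to 44.2 ± 0.97 CPM in N2 (log2 change 2.26, SE 0.10) and was at 7.23 ± 0.95 and 6.30 ± 0.52 CPM in raga-1 (-0.19, SE 0.13, difference -2.45, SE 0.17). cye-1, the cyclin E gene, rose in N2 (1.22, SE 0.14) and by less in raga-1 (0.35, SE 0.15, difference -0.88, SE 0.20), where library totals alone lost the raga-1 call (0.25, adjusted p = 0.126). lin-35, the retinoblastoma homologue, and dpl-1, its DP partner, rose in N2 (1.40, SE 0.08, and 1.11, SE 0.09) and raga-1 (0.78, SE 0.08, and 0.64, SE 0.08).

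The skin cells in which the pathway is best known were followed through their own genes. Of 8 seam cell genes, 4 were higher and 2 lower on feeding in N2, 0 and 2 for raga-1 mutants, with 3 and 1 for rsks-1 mutants, beside 73.9%, 62.4% and 70.8% of all genes called. Their summed levels were 101 to 105 CPM in starved and 181 to 193 CPM in fed N2, and 188 to 204 and 178 to 183 CPM in raga-1. Most of the differences between these sums came from grd-10. Between starved raga-1 and starved N2 1 of the 8 genes was higher, 1 was lower and 6 were not called, beside 52.7% of all genes called. grd-10 stood at 17.8 ± 2.60 CPM starved against 79.9 ± 1.498 fed in N2, but 115 ± 5.05 against 103 ± 1.98 in raga-1 mutants. The GATA factor gene elt-1 rose in N2 (0.75, SE 0.09) and was not called in raga-1 (-0.15, SE 0.09, but lower at -0.25 under library totals alone), and the Runx gene rnt-1 fell in N2 (-1.03, SE 0.16). nhr-73 was called higher in N2 but stood at 0 in starved and 0.18 ± 0.30 CPM in fed libraries, and lost its call under library totals alone (adjusted p = 0.0598). That scaling gave 3 higher and 3 lower in N2, 0 and 5 for raga-1 mutants, with 3 and 1 for rsks-1. Their part in the values of lin-42 and blmp-1 was not tested.

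Of 6 hypodermis markers 4 were tested, and 3 were higher in N2, 2 higher and 1 lower in raga-1, and 4 higher in rsks-1, where 73.9%, 62.4% and 70.8% of all genes were called. Library totals alone gave 2 higher and 1 lower in N2 and in raga-1, and 3 higher in rsks-1. Sums were 180.2 to 181.5 CPM in starved and 226 to 233 CPM in fed N2, and 160 to 166 and 181 to 199 CPM in raga-1. lin-26 and nhr-25, factors of epidermal fate, rose in N2 (0.33, SE 0.06, and 0.75, SE 0.06), lin-26 only with trimmed-mean or relative log expression factors (0.03, adjusted p = 0.634, under library totals alone). The cuticle collagen gene dpy-7 averaged 0.17 ± 0.18 CPM before and 0.71 ± 0.32 CPM after feeding in N2, 3.14 ± 0.63 and 0.31 ± 0.14 in raga-1 mutants, then 0.43 ± 0.26 and 3.08 ± 0.68 in rsks-1 mutants. elt-3 was not called in N2 (-0.04, SE 0.06, but lower at -0.34 under library totals alone) and rose in raga-1 (0.45, SE 0.05). The part of these markers in the values of the timing genes was not tested.

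Markers of other tissues were read against the shares of all genes called lower (37.4% in N2, 32.9% in raga-1, 35.2% in rsks-1) and higher (36.5%, 29.4% and 35.7%). All 6 neuron markers fell in N2 and in raga-1 and 4 in rsks-1 (log2 changes in N2 of -0.70 for rgef-1, -0.40 for snb-1, -0.35 for unc-119, -0.35 for rab-3 and -0.27 for unc-104). Relative log expression factors called 4 neuron markers in raga-1, without unc-119 (adjusted p = 0.0514) and unc-104 (adjusted p = 0.0731), and 5 in rsks-1. All 4 pharynx markers fell in N2, with sums of 3121 to 3226 CPM starved and 1910 to 1997 CPM fed. Among raga-1 larvae 3 of the 4 pharynx markers fell (2864 to 3065 and 2381 to 2543 CPM). myo-1 and myo-2 fell by less in raga-1 than in N2 (differences 0.45 and 0.44, SE 0.04 each). tnt-4 was not called in raga-1 (adjusted p = 0.967, but lower at -0.10 with library totals alone), and pha-4 fell in both (-0.48 and -0.44). Of 6 intestine markers 3 were higher and 2 lower in N2 and 3 and 1 in raga-1, with pho-1, pept-1 and vha-6 rising (2.10, 1.57 and 1.07 in N2) and ges-1 falling (-2.39), at sums of 727 to 744 CPM starved and 1519 to 1558 CPM fed in N2. Of 5 muscle markers 2 were higher and 2 lower in N2 (hlh-1 0.48, myo-3 0.15, unc-15 -0.41, unc-54 -0.41), and with library totals alone 0 were higher and 4 lower, myo-3 turning to -0.15 and hlh-1 (0.18) not called. For raga-1 2 muscle markers were higher and 3 lower, and for rsks-1 1 and 4 (sums of 10248 to 10379 CPM starved and 5266 to 5557 CPM fed in rsks-1). Among rsks-1 larvae all 4 pharynx markers fell (2497 to 2585 and 1200 to 1253 CPM). There 4 intestine markers were higher and 1 lower (3 and 1 with relative log expression factors). Of 3 germ line precursor markers tested of 4, glh-1 and pgl-1 rose (0.48 and 0.83) and glh-2 fell (-0.85) in N2, glh-1 losing its call under library totals alone (0.17, adjusted p = 0.0717), and of 3 yolk genes tested vit-4 was called higher at 0.22 ± 0.14 to 1.37 ± 0.49 CPM. Their part in the changes of the timing genes was not tested.

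The mutants were also compared with N2 within each feeding state. In starved larvae 4 of the 9 timing genes differed between raga-1 and N2 (1 higher, lin-66, and 3 lower, lin-28, lin-29 and hbl-1), where 52.7% of all genes were called (27% higher, 25.7% lower). Under library totals alone 8 were called, 5 of them higher. In fed larvae 8 differed (2 higher, lin-14 and lin-66, and 6 lower, lin-28, hbl-1, lin-41, lin-42, blmp-1 and daf-12), where 63.3% were called (28.9% higher, 34.4% lower), and with library totals alone 7 were called, 5 of them higher. Under that scaling the fed differences of lin-28 (0.21), lin-41 (0.20) and daf-12 (0.07, not called) turned to higher in raga-1, against -0.11, -0.12 and -0.25 as reported. lin-42 (fed difference -2.94, SE 0.19, 7.67-fold) and blmp-1 stayed lower under both.

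Between starved rsks-1 and N2 5 of the 9 differed (3 higher, lin-42, blmp-1 and hbl-1, and 2 lower, lin-14 and lin-41), with 26.9% of all genes called (15.1% higher, 11.9% lower). Library totals alone gave 3 higher and 4 lower. Between fed rsks-1 and N2 4 differed (3 higher, lin-28, lin-29 and lin-42, and 1 lower, lin-14), with 40% called (17.4% higher, 22.6% lower), and 5 higher and 0 lower with library totals alone. The fed calls of lin-28 (0.12, SE 0.05) and lin-29 (0.49, SE 0.19) were small or noisy. The lin-28 call was lost with DESeq2, with relative log expression factors, and without N2 fed replicate 1 or 2 or rsks-1 fed replicate 2 or 3. That of lin-29 was lost with DESeq2 and without N2 fed replicate 1 or 3 or rsks-1 fed replicate 1 or 3. The fed difference of lin-42 was 0.45 (SE 0.14, adjusted p = 0.00552), and without rsks-1 fed replicate 1 it was 0.37 and not called (adjusted p = 0.0563). DESeq2 and the fits without N2 fed replicate 1 or rsks-1 fed replicate 1 or 3 called 2 of the 9. Without rsks-1 starved replicate 3 only 3 of 9 were called in starved larvae.

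Levels were also set in order per length of the longest listed transcript, as relative abundance (TPM). In starved N2 the order was lin-28 (132 ± 4.77), lin-14 (98.6 ± 3.61), lin-41 (70.2 ± 4.13), lin-66 (59.2 ± 4.26), daf-12 (26.7 ± 1.64), hbl-1 (16.6 ± 0.75), blmp-1 (12.8 ± 0.70), lin-29 (3.99 ± 0.23) and lin-42 (0.71 ± 0.04), and no neighbours overlapped (SD, n = 3). Among fed N2 levels lin-41 (79.9 ± 1.72) stood above lin-14 (60.0 ± 2.46), and lin-42 (4.61 ± 0.39) above lin-29 (1.89 ± 0.38). In fed raga-1 lin-42 (0.78 ± 0.06) remained below lin-29 (3.00 ± 0.09), and lin-28 (104.8 ± 3.46) and lin-41 (96.2 ± 4.79) did not overlap, whereas lin-41 and lin-14 (89.2 ± 3.27) did. The places of hbl-1 and daf-12 depend on the length used. The longest hbl-1 transcript has 4478 bases, while nearly all hbl-1 counts went to F13D11.2b with 2883 bases, and the longest of daf-12 has 3656 bases against 2194 for F11A1.3c, its isoform with the largest mean share. Per length of each gene's isoform with the largest mean share, an alternative chosen after seeing the data, the starved N2 order stayed the same (daf-12 44.5 ± 2.73, hbl-1 25.7 ± 1.17). In fed N2 daf-12 (48.9 ± 2.04) then stood above lin-66 (38.3 ± 2.60), and blmp-1 (28.2 ± 1.56) above hbl-1 (24.0 ± 1.28), with no overlap. In fed raga-1 hbl-1 (23.9 ± 0.99) stood above blmp-1 (17.6 ± 1.53) by this length, where the longest transcripts gave blmp-1 (17.3 ± 1.51) above hbl-1 (15.4 ± 0.63), and daf-12 (53.9 ± 4.61) overlapped lin-66 (59.0 ± 1.58).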

How the data were processed

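The deposited gene and isoform tables hold expected counts (estimated by RSEM, after alignment with STAR), and DESeq2 is also named, all without versions, per the submitters' processing notes. Library preparation is not given in the sources used here. Depth was 9929323 to 18539402 counts per library, and 0.962% of gene values were not whole. Values were rounded and fitted with edgeR 4.0.16 (limma 3.58.1, R 4.3.3): filterByExpr with a minimum count of 10, TMM scaling, 1 mean per group over all 18 libraries, robust quasi-likelihood F tests with 12 residual degrees of freedom, Benjamini-Hochberg adjustment over 14073 genes or 22255 isoforms, threshold 0.05. These tests also share information on spread across genes, so their p-values do not rest on 12 degrees of freedom alone. SE is the absolute log2 change over the square root of F. Simulated counts in which few genes changed, in balanced directions, were also put through the fit. They cannot show how it does where most genes are called, as on feeding here. Per-length values divide counts by the longest transcript in the WBcel235 annotation (Ensembl release). Other work used Python 3.11.15, pandas 2.3.3, NumPy 2.4.6 and matplotlib 3.10.9.

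The 9 genes and the gene lists were chosen with earlier results of these data known. From each list the text names up to 4 genes with the largest called change on feeding in N2 and up to 2 with the largest called difference of the raga-1 response. For each timing gene whose group means spanned at least 1 log2 unit, the 3 genes of closest profile are named. Alternatives were relative log expression factors, library totals alone, DESeq2 1.42.0, no filter, the replicate number as a block, only the compared libraries, summed isoform counts, and each library left out. Scaling and left-out libraries for the lin-14 and lin-28 isoforms, and scaling for the lists, were added after seeing the data. No pair of replicates agreed within sampling noise (mean chi-square 2.12 to 5.99 per gene).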

Additional observations from a re-analysis of the deposited data

Results flagged for a closer look

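These results stand out because the size of the feeding response differed between genotypes in a direct test of the difference (edgeR quasi-likelihood interaction test, Benjamini-Hochberg adjusted over all genes). All are differences of log2 change on feeding, and 50.5%, 26.6% and 44% of all genes passed the same test for raga-1 against N2, rsks-1 against N2 and raga-1 against rsks-1.

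For raga-1 minus N2 the differences were -3.35 for lin-42, -1.10 for blmp-1, -0.25 for daf-12, 0.21 for lin-14, 0.27 for lin-28 and 1.03 for lin-29. For rsks-1 minus N2 they were -0.55 for blmp-1, 0.12 for lin-41 and 0.87 for lin-29. For raga-1 minus rsks-1 they were -2.67 for lin-42, -0.55 for blmp-1, -0.33 for daf-12, -0.22 for lin-41, 0.17 for lin-28 and 0.23 for lin-14.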

How the results depend on the processing

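Of 2250 recomputed values of the 9 genes (90 log2 changes under 25 alternatives each), 2128 kept direction and side of the threshold, 46 lost the call, 24 gained it and 52 changed sign, 45 of these past the threshold under neither setting. The cause of these shifts was not tested. Replicate numbers did not pair the libraries: of 45 same-number pairs 1 had a correlation of deviations above 0.1 (median -0.00813), against 10 of 90 other pairs. With the replicate block 9 timing genes were called on feeding in N2, 6 in raga-1 and 7 in rsks-1, the same counts as without it, as was so for the other comparisons of genes, and 11 isoforms in N2 in place of 12.

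With library totals alone the signs turned for feeding of hbl-1 in N2 (-0.047) and rsks-1 (-0.1369), lin-28 in raga-1 (-0.0855), lin-29 in rsks-1 (-0.0583) and isoform F02E9.2a in rsks-1 (-0.1525). They turned too for the responses of hbl-1 (0.0705) and lin-41 (0.1053) in raga-1 against N2, lin-14 in rsks-1 against N2 (0.0831) and lin-66 in raga-1 against rsks-1 (0.0882). In starved larvae they turned for lin-14 (0.0909) and lin-41 (0.0954) in raga-1 and lin-28 in rsks-1 (-0.0153), and in fed larvae for daf-12 (0.0692), lin-28 (0.206) and lin-41 (0.2007) in raga-1 and blmp-1 (0.032), daf-12 (0.0525) and hbl-1 (0.0579) in rsks-1. Counts of called genes moved to 6 for the response of rsks-1 against N2 and to 8 for starved raga-1 against N2. With only the compared libraries daf-12 (0.0148) and hbl-1 (0.0207) turned in fed rsks-1, as did the responses of lin-41 in raga-1 against N2 (0.0011) and lin-66 in raga-1 against rsks-1 (0.0726). DESeq2 and relative log expression factors turned daf-12 in starved raga-1 (-0.0196 and -0.0183) and the lin-66 response in raga-1 against rsks-1 (0.0308 and 0.0315), and DESeq2 called 2 genes in fed rsks-1 against N2.

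With each library left out, values that crossed 0 ran from -0.0067 to 0.0611 (blmp-1, starved raga-1), -0.0596 to 0.0079 (daf-12, fed rsks-1), -0.0427 to 0.0281 (daf-12, starved raga-1), -0.058 to 0.0617 (hbl-1, fed rsks-1), -0.0095 to 0.1103 (hbl-1, response of raga-1 against rsks-1), -0.0611 to 0.0028 (lin-14, starved raga-1), -0.039 to 0.0684 (lin-28, feeding in raga-1), -0.0007 to 0.0425 (lin-28, starved rsks-1), -0.0349 to 0.0123 (lin-66, response of raga-1 against rsks-1) and -0.0479 to 0.0114 (lin-66, starved rsks-1). For isoforms they ran from -0.0866 to 0.0473 and -0.0635 to 0.0309 (T25C12.1a, feeding in N2 and rsks-1) and -0.1383 to 0.0047 (T25C12.1b, feeding in raga-1). Counts ran from 2 to 4 (fed rsks-1 genes), 3 to 5 (starved rsks-1 genes), 6 to 11 (isoforms, feeding in rsks-1, lowest without rsks-1 starved replicate 1 or 3) and 5 to 8 (isoforms, response of raga-1 against N2, lowest without N2 starved replicate 3 or raga-1 fed replicate 1 or 2). Depth limits lin-42 and lin-29 most, with 18 to 264 and 36 to 106 counts per library.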
